A study of Homo sapiens with 6 samples.

Results

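The genes described here act in endocytosis and endosomal recycling, and their N6-methyladenosine (m6A) peaks were read in 3 deposited peak lists of U-251 MG cells, a human glioblastoma line. They are 56 genes taken by RefSeq symbol, out of 20037 coding genes in the RefSeq table of GRCh38.p14. A peak was given to a gene when it touched the gene's body, and to the innermost body where several were nested and it lay inside that one. In the assay, meRIP-seq, an m6A antibody enriches methylated RNA fragments, which are sequenced next to untreated input. All cells carried a short hairpin: shNC, the control, shTRA2A, directed against the splicing regulator TRA2A, or shMETTL3, directed against the catalytic subunit of the m6A writer. Each condition had 1 immunoprecipitated and 1 input library and 1 peak list, so differences between conditions cannot be set against replicate spread and are given untested. How many hairpins were used, whether cells were pooled or cloned, how far each target was reduced and how deeply each library was sequenced is not stated in the labels.

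Endocytosis carries receptors and other cargo from the plasma membrane into the cell, in large part through vesicles coated with clathrin. Vesicles fuse into early endosomes under RAB5, from which cargo either returns to the surface through RAB4, RAB11, RAB35 and ARF6 or passes under RAB7 to late endosomes and lysosomes. The balance of these routes sets how long activated receptors such as EGFR stay at the surface, and the series title names recycling of phosphorylated EGFR.

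The shNC, shTRA2A and shMETTL3 lists held 9206, 2736 and 5433 peaks, of which 92.1 to 92.7% were assigned to a coding gene. Each peak carries a score, the value the authors' peak caller gave it. The scale is not stated and the lists start at different values, so a score is read only as a rank within its own list. METTL3 had no peak in any list and TRA2A had 1, in shTRA2A, and peak lists do not measure how far either transcript was lowered. Of 6 glioma and astrocytic markers 4 had a control peak (NES, SOX2, SOX9 and CD44), while GFAP and VIM had none in any list. None of 3 immune and 3 endothelial markers had a peak in any list. A gene without a peak cannot be told apart here from one that was not transcribed or too thinly covered.

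Control cells had peaks in 32 of the 56 genes, 57.1% (exact 95% interval 43.2 to 70.3%), against 20% of all coding genes. In shTRA2A 17 genes had a peak, 30.4% (18.8 to 44.1%) against 8.86% of coding genes, and in shMETTL3 22, 39.3% (26.5 to 53.2%) against 15.7%. The genes were listed with earlier results of these data known, so their shares of genes with a peak are a description and support nothing. Intervals cover counting error alone and treat genes or peaks as independent, which peaks of the same gene may not be. In all, 132 peaks were assigned, 64 in shNC, 22 in shTRA2A and 46 in shMETTL3. A peak in at least 1 list was assigned to 44 of the 56 genes, 78.6% (65.6 to 88.4%), against 28.2% of coding genes. No peak in any list was assigned to 12 genes: RAB4A, RAB5A, RAB5C, RAB10, RAB11A, RAB11FIP1, SNX1, SNX2, VPS13B, STAM, TSG101 and SORT1.

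**Figure D1:**
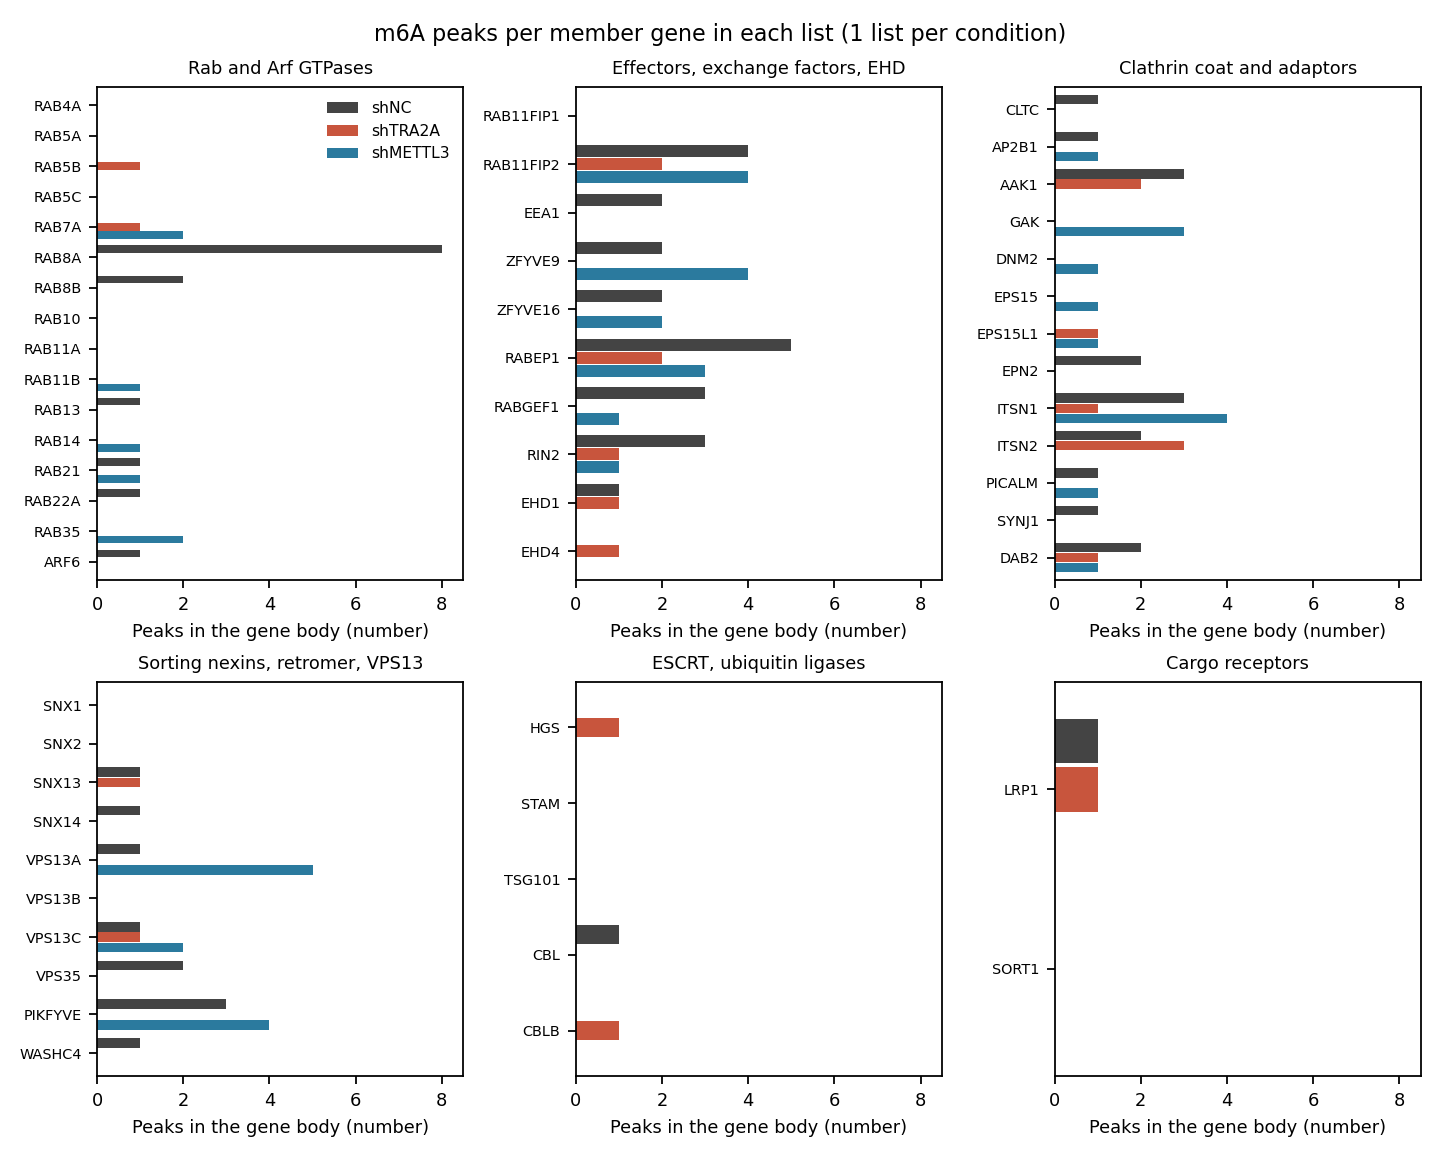
Number of peaks (horizontal axis) in the body of each of the 56 genes, by role, with 1 bar per list for shNC, shTRA2A and shMETTL3 and no bar where a list has no peak. RAB8A has 8 in the control and 0 in the others, RAB11FIP2 has 4, 2 and 4, and 12 genes have none in any list.

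The first question the design poses is which control peaks are still called when TRA2A or METTL3 is targeted. Among the 32 genes with control peaks, shTRA2A peaks were called in 11, 34.4% (18.6 to 53.2%), and shMETTL3 peaks in 14, 43.8% (26.4 to 62.3%). Over all coding genes with a control peak these shares were 29.1% and 47.8%, inside both intervals. A stricter demand was that a knockdown and a control peak share at least 1 base on the same strand. Both were taken as spans from start to end, so a shared base may lie in a gap inside a peak. By this demand 3 genes remained for shTRA2A, 9.38% (1.98 to 25%) against 16.1%, and 9 for shMETTL3, 28.1% (13.7 to 46.7%) against 28.4%. Counted by peak, 4 of the 64 control peaks were overlapped in shTRA2A, 6.25% (1.73 to 15.2%) against 9.65%, and 12 in shMETTL3, 18.8% (10.1 to 30.5%) against 18.0%. Every interval includes its background share. Those of the 3 genes and 4 peaks overlapped in shTRA2A are too wide to tell a lower share from the background. In 13 of the 32 genes, 40.6% (23.7 to 59.4%) against 43.5% of coding genes with a control peak, none was called in either knockdown list: RAB8A, RAB8B, RAB13, RAB22A, ARF6, EEA1, CLTC, EPN2, SYNJ1, SNX14, VPS35, CBL and WASHC4. Both knockdown lists had a peak in 6 of the 32, 18.8% (7.21 to 36.4%) against 20.4%, and these were RAB11FIP2, RABEP1, RIN2, ITSN1, VPS13C and DAB2.

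Over all coding genes the share with a knockdown peak was higher in genes with more control peaks. Among the endocytosis genes the shares rose in the same order, but the class intervals overlap and the top class holds 3 genes. Of the 16 genes with 1 control peak, 4 were called in shTRA2A, 25% (7.27 to 52.4%), against 20.5% of coding genes of that class. For 13 genes with 2 to 3 control peaks it was 5, 38.5% (13.9 to 68.4%) against 32.3%. For the 3 genes with 4 or more, RAB8A, RABEP1 and RAB11FIP2, it was 2, 66.7% (9.43 to 99.2%) against 52.8%. The shMETTL3 counts in these classes were 5, 7 and 2, against backgrounds of 36.5%, 52.5% and 77.2%. Their shares were 31.2% (11.0 to 58.7%), 53.8% (25.1 to 80.8%) and 66.7% (9.43 to 99.2%). Counted on the gene's own strand, RABEP1 and RAB11FIP2 have 3 control peaks each and leave the top class. RAB8A alone stays there, with 5 control peaks and no knockdown peak. Control peaks that were overlapped ranked higher in the control list than the others. Their median score percentile was 87.7 in shTRA2A (4 peaks) against 52.7 for the 60 others, and 78.9 in shMETTL3 (12 peaks) against 48.4 for the 52 others. Over all coding genes the same medians were 85.4 against 47.0 and 80.0 against 44.1. The overlapped control peaks were also wider, with medians of 1842 against 150 nt in shTRA2A and 300 against 150 nt in shMETTL3 (275 against 125 and 250 against 100 nt over coding genes). The part of width in an overlap that needs 1 base was not tested.

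**Figure D2:**
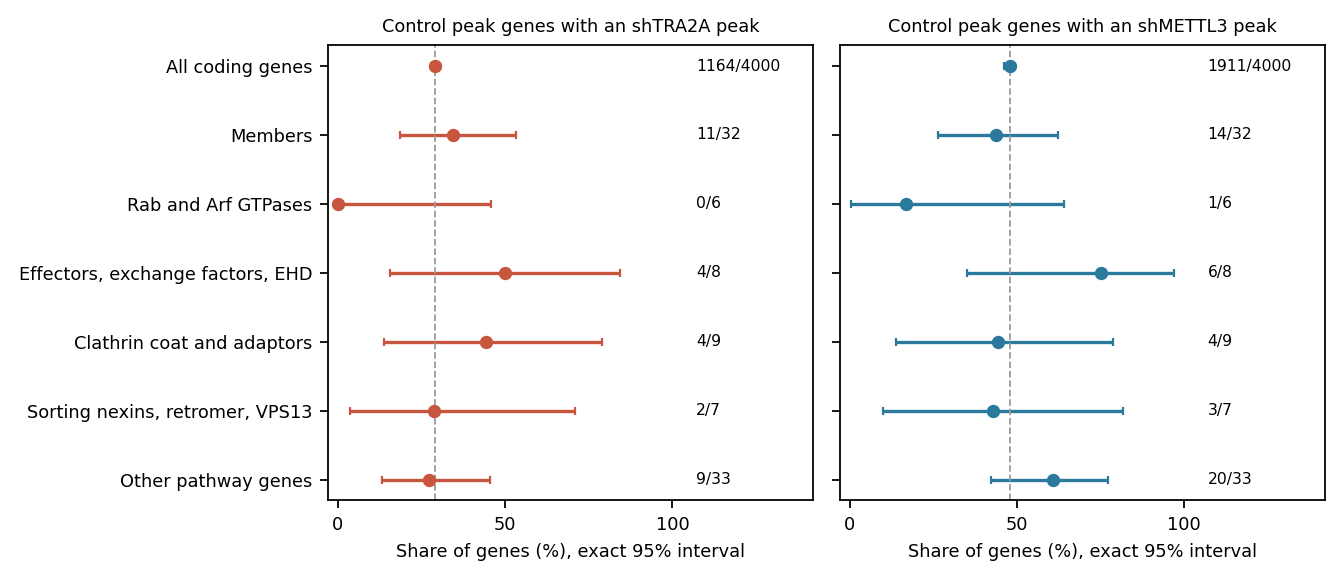
Share of genes with a control peak that also had a peak in the shTRA2A (left) or shMETTL3 list (right), with exact 95% intervals and the counts at the right of each panel; the dashed line is the share over all coding genes, 29.1% and 47.8%. ESCRT genes and cargo receptors, with 1 control peak gene each, are not drawn. Of the 4 role groups drawn, the 6 Rab and Arf genes lie lowest in both panels (0 and 1 found), the 8 effector, exchange factor and EHD genes highest (4 and 6 found), and all intervals shown include the dashed line.

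Rab and Arf GTPases are the molecular switches that give each endosomal membrane its identity, and 6 of the 16 had a control peak. None of these 6 was called in shTRA2A (exact upper bound 45.9%), against 29.1% of coding genes with a control peak. In shMETTL3 1 was called, 16.7% (0.421 to 64.1%) against 47.8%, and both intervals include the coding gene share. That gene was RAB21, an early endosomal GTPase linked to integrin traffic, whose control peak at chr12:71785689-71785738 (score 11.9) shared 25 bases with an shMETTL3 peak at chr12:71785714-71785788 (score 7.12). In the other 5, RAB8A, RAB8B, RAB13, RAB22A and ARF6, no peak was called after either hairpin.

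RAB8A, which directs vesicles to the plasma membrane and primary cilium, had the most control peaks of all 56 genes, 8, between chr19:16132479 and chr19:16133528. They scored from 9.43 to 19.6, and the highest, 200 nt wide at chr19:16133079-16133278, stood at the 77.6th percentile of the control list. Of the 8, 5 lay on the strand of the gene and 3 on the opposite one, and each of those 3 overlapped a peak on the gene's strand. Its close relative RAB8B had 2 control peaks, 50 nt at chr15:63262724-63262773 (score 12.1) and 425 nt at chr15:63263549-63263973. The latter scored 38.1, at the 94.1st percentile, the highest value among the GTPases. ARF6, a recycling GTPase of the plasma membrane, had 1 control peak of 200 nt at chr14:49894230-49894429 with a score of 24.0, at the 84.4th percentile. RAB22A, of the RAB5 subfamily, had 1 at chr20:58359867-58359941 (score 14.1), and RAB13, which acts in tight junction and recycling traffic, 1 at chr1:153982324-153982448 (score 9.7).

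The other 10 GTPases lacked control peaks, and 5 of them were called after a hairpin, 2 in shTRA2A and 4 in shMETTL3. Over the whole list, shTRA2A peaks were called in 6 of the 24 genes lacking control peaks, 25% (9.77 to 46.7%) against 3.82% of such coding genes, and shMETTL3 peaks in 8, 33.3% (15.6 to 55.3%) against 7.64%. The background counts many genes that may not be transcribed in these cells, and the list was not blind to these results. RAB5B, an early endosomal GTPase, had 1 shTRA2A peak of 5405 nt at chr12:55973988-55979392 (score 8.94). RAB7A, the GTPase of late endosomes, had a wide peak running from inside its 3′ end to beyond it in both knockdown lists. That peak lay at chr3:128814705-128823723 in shTRA2A (score 7.93) and chr3:128814705-128823798 in shMETTL3 (score 3.84, at percentile 1.3). The gene ends at chr3:128814798, so nearly all of that peak lay past it in both lists. In shTRA2A it was the only peak assigned to RAB7A. A second shMETTL3 peak of RAB7A, 75 nt at chr3:128814405-128814479 (score 7.77), lay 356 nt before the end of the gene. RAB14, which links early endosomes and Golgi, had an shMETTL3 peak of 50 nt at chr9:121190652-121190701 (score 13.8, 86.0th percentile). RAB11B, a recycling endosome GTPase, had 1 at chr19:8403676-8403725 (score 7.65), and RAB35, of the fast recycling route, had 2, of 50 and 4517 nt (scores 6.32 and 7.68).

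The RAB5B peak was the only one of the 132 to reach a window from 250 bases before to 50 after a RefSeq transcript start. RefSeq gives such windows for 51 of the 56 genes. The 30 bases around the beginning of that peak, on the plus strand at chr12:55973973-55974002 (GRCh38.p14), are shown because no other peak of these genes could be set on a sequence, with the bases inside the peak in capitals.
RAB5B: tgagtgcacatatagCCCACCCTCGAAGGT
The motif GGACT, a common form of the m6A consensus, was searched on both strands in the 140 bases that the peak shares with the window of the gene's second start. It did not occur on either strand, and 23.6% of 35116 windows' last 140 bases held it on 1 strand or the other. The rest of the peak was not searched.

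Effectors, exchange factors and EHD proteins act on or beside the GTPases, and 8 of these 10 genes had a control peak. Of the 8, shTRA2A peaks were called in 4, 50% (15.7 to 84.3%) against 29.1% of coding genes with a control peak. The shMETTL3 peaks were called in 6, 75.0% (34.9 to 96.8%) against 47.8%. All 6 of the latter had a control peak overlapped in shMETTL3, 75.0% against the 28.4% of coding genes given above, and 9 of the group's 22 control peaks were overlapped, 40.9% (20.7 to 63.6%) against 18.0%. Both intervals lie above their background, but 4 of the 9 overlapped peaks are in RAB11FIP2. Without that gene 5 of 18 control peaks were overlapped, 27.8% (9.69 to 53.5%), an interval that includes 18.0%, and 5 of 7 genes, 71.4% (29.0 to 96.3%). In shTRA2A the group had 1 of 8 genes overlapped, 12.5% against 16.1%, and 2 of 22 peaks, 9.09% against 9.65%, all in RAB11FIP2. The group was 1 of 6 formed with these results known, so the contrast is a description.

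RAB11FIP2, a RAB11 partner that brings cargo from recycling endosomes to the surface, had 4 control, 2 shTRA2A and 4 shMETTL3 peaks. Its best control peak, 1257 nt at chr10:118038958-118040214, scored 51.3 (97.0th percentile), the highest among all 56 genes. That peak held an shTRA2A peak of 75 nt (chr10:118039133-118039207, score 8.66) and an shMETTL3 peak of 125 nt (chr10:118039183-118039307, score 7.6), which shared 25 bases with each other. All 4 control peaks were overlapped in shMETTL3 and 2 in shTRA2A. Towards its 3′ end, a control peak of 300 nt at chr10:118008891-118009190 (score 30.4) held a 50 nt shMETTL3 peak (score 12.4) and no shTRA2A peak. On the strand opposite to the gene, the control and shMETTL3 lists had a 3248 nt peak with identical ends, chr10:118040268-118043515, with scores of 21.2 and 24.6. Without peaks on that strand RAB11FIP2 kept 3 control, 1 shTRA2A and 3 shMETTL3 peaks.

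RABEP1, the RAB5 effector rabaptin-5, had 5 control, 2 shTRA2A and 3 shMETTL3 peaks. Near its 3′ end, a 50 nt control peak at chr17:5383232-5383281 (score 12.6) lay inside an shMETTL3 peak at chr17:5383207-5383381 (score 6.69). An shTRA2A peak at chr17:5383332-5383381 (score 8.78) ended at the same base as that shMETTL3 peak and missed the control peak by 50 nt. Further towards the end, both knockdown lists had a peak where the control had none, at chr17:5383807-5383856 in shTRA2A (score 8.16) and chr17:5383832-5383906 in shMETTL3. The shMETTL3 score there, 41.0, stood at the 99.4th percentile of that list, above all other shMETTL3 peaks of these genes. RIN2, a RAB5 exchange factor, had 3 control peaks, and the 1956 nt one at chr20:19990232-19992187 (score 19.5) was covered over 1881 nt by the only shMETTL3 peak of the gene (score 14.7). The only shTRA2A peak of RIN2 lay far upstream, at chr20:19809585-19809659 (score 7.34).

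RABGEF1, the RAB5 exchange factor Rabex-5, had 3 control peaks and an shMETTL3 peak on the best of them. The control peak was at chr7:66808973-66809272 (score 31.6) and the shMETTL3 peak at chr7:66808923-66809222 (score 9.51), both 300 nt wide and 50 nt apart in position. ZFYVE9, the endosomal anchor of SMAD proteins known as SARA, had 2 control and 4 shMETTL3 peaks. Its 500 nt control peak at chr1:52238516-52239015 (score 30.1, 90.0th percentile) was touched by 2 of the 4. The related ZFYVE16, or endofin, had 2 and 2, of which a pair shared 50 bases, with the shMETTL3 peak at chr5:80436982-80437131 at the 95.8th percentile of its list (score 21.4). Neither gene had an shTRA2A peak. EEA1, the tether of early endosomes, had 2 control peaks of 1110 and 6782 nt (scores 20.2 and 15.9) and none after either hairpin. EHD1, an ATPase that cuts recycling tubules, had 1 control peak near its 3′ end (chr11:64854117-64854366, score 17.0) and 1 shTRA2A peak near the other (chr11:64877869-64878061, score 7.38). EHD4 had an shTRA2A peak alone, at chr15:41900533-41900632 (score 8.07).

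All 13 genes of the clathrin coat, its adaptors and accessory proteins had a peak in at least 1 list, 9 of them in the control. In each knockdown list 4 of these 9 had a peak, 44.4% (13.7 to 78.8%). Over coding genes with a control peak it was 29.1% in shTRA2A and 47.8% in shMETTL3. By overlap 1 of the group's 16 control peaks was found in each knockdown list, 6.25% (0.158 to 30.2%), and the coding gene shares of 9.65% and 18.0% lie inside that interval. ITSN2, an endocytic scaffold, had the best control peak of the group, 2426 nt at chr2:24298741-24301166 with a score of 41.0 (95th percentile). It held 2 short shTRA2A peaks, at chr2:24299935-24300009 and chr2:24300085-24300134 (scores 9.0 and 8.66). With another at chr2:24321859-24326662, ITSN2 was the only gene with control peaks to have more shTRA2A peaks (3) than control peaks (2), and it had none in shMETTL3.

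Its paralogue ITSN1 differed, with 3 control, 1 shTRA2A and 4 shMETTL3 peaks. A 100 nt control peak at chr21:33774731-33774830 (score 11.9) lay inside an shMETTL3 peak with the same last base, chr21:33774681-33774830, whose score of 29.7 was at the 98.6th percentile. The 1 shTRA2A peak, chr21:33794424-33797433 (score 9.29), lay inside an shMETTL3 peak at chr21:33794349-33797533 (score 8.77), and 19593 nt from the nearest control peak. That shTRA2A peak, at the 80.7th percentile, was the only one of the 22 in the better-scoring 20% of its list, a share of 4.55% (0.115 to 22.8%), against 15.6% (7.76 to 26.9%) of the control and 26.1% (14.3 to 41.1%) of the shMETTL3 peaks. All 3 intervals include 20%.

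PICALM and DAB2, both clathrin adaptors, each had a knockdown peak close to a control peak without touching it. In PICALM the control peak at chr11:85958875-85958974 (score 14.3) and the shMETTL3 peak at chr11:85958775-85958824 (score 7.26) were 50 nt apart. In DAB2 the control peak at chr5:39372586-39372735 (score 11.5) and the shTRA2A peak at chr5:39372486-39372535 (score 7.34) were also 50 nt apart, and the shMETTL3 peak lay elsewhere. Of 11 shTRA2A peaks off every control peak in genes that had one, 3 were within 100 nt of a control peak, 27.3% (6.02 to 61.0%) against 16.0% over coding genes. For shMETTL3 it was 1 of 20, 5.00% (0.127 to 24.9%) against 15.6%.

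AAK1, a kinase of the AP-2 adaptor, had 3 control and 2 shTRA2A peaks. Its 4229 nt shTRA2A peak ended at chr2:69518976, the base before a control peak at chr2:69518977-69519051 (score 11.7), so the pair abutted and did not overlap. AP2B1, an AP-2 subunit, had 1 control and 1 shMETTL3 peak of 50 nt, 1950 nt apart. CLTC, the clathrin heavy chain (score 10.0), SYNJ1, a phosphoinositide phosphatase of uncoating (score 9.62), and EPN2, a membrane-bending adaptor (2 peaks, best score 10.5), had control peaks only. The remaining 4 had no control peak and an shMETTL3 peak each, 4 of 4 (39.8 to 100%), against 7.64% of coding genes without a control peak. They were GAK, the uncoating kinase, with 3, and DNM2, the fission GTPase dynamin 2, EPS15 and EPS15L1, both endocytic scaffolds, with 1. The DNM2 peak lay at chr19:10755410-10759729 (score 6.76), that of EPS15 at chr1:51356763-51361211 (score 11.5) and that of EPS15L1 at chr19:16385190-16386173 (score 14.7). Those of GAK lay at chr4:853743-859450, chr4:865237-866405 and chr4:932094-932168, with scores from 6.87 to 8.18. EPS15L1 also had an shTRA2A peak, 23524 nt from its shMETTL3 peak. Apart from 1 peak of 75 nt in GAK, these shMETTL3 peaks were 984 to 5708 nt wide.

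Sorting nexins, retromer, the WASH complex and VPS13 lipid transporters act where cargo leaves the endosome, and 7 of these 10 genes had a control peak. Of the 7, 2 were called in shTRA2A, 28.6% (3.67 to 71.0%) against 29.1% of coding genes with a control peak. In shMETTL3 it was 3, 42.9% (9.90 to 81.6%) against 47.8%, and both intervals are wide and include the coding gene share. SNX14 had the second best control score of the 56 genes, 41.6 (95.2nd percentile), on a 5517 nt peak at chr6:85508376-85513892, and no knockdown peak. SNX13 had a 75 nt control peak at chr7:17794036-17794110 (score 11.2) that shared 25 bases with an shTRA2A peak at chr7:17793986-17794060 (score 7.63). VPS35, the core retromer subunit, had 2 control peaks of 506 and 1431 nt (scores 14.5 and 15.5), WASHC4 had 1 of 150 nt (score 16.0), and neither had a knockdown peak.

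VPS13A, VPS13C and PIKFYVE had more shMETTL3 than control peaks. VPS13A had 1 control peak, 8471 nt at chr9:77407567-77416037 (score 23.5), and 5 shMETTL3 peaks, 2 of which lay inside that span. VPS13C had 1, 1 and 2 peaks, none on another, although its shTRA2A peak at chr15:61922475-61922524 (score 7.97) lay 150 nt from an shMETTL3 peak at chr15:61922675-61922749 (score 19.8, 95th percentile). PIKFYVE, the kinase that makes the endolysosomal lipid PI(3,5)P2, had 3 control and 4 shMETTL3 peaks with no overlap between them. Of the 40 endocytosis genes with a control or an shMETTL3 peak, 13 had more shMETTL3 than control peaks, 5 as many and 22 fewer. These are 32.5%, 12.5% and 55.0%, against 29.6%, 13.3% and 57.0% of such coding genes. Of the 38 with a control or an shTRA2A peak it was 7, 4 and 27, or 18.4%, 10.5% and 71.1%, against 16.0%, 8.8% and 75.2%. Both knockdown lists are shorter than the control list, so these counts are not on an equal footing.

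ESCRT proteins sort ubiquitinated receptors towards the lysosome, and CBL and CBLB are the ligases that mark EGFR. CBL had 1 control peak, 263 nt at chr11:119285068-119285330 (score 10.5), and none in the knockdown lists. CBLB and HGS, the ESCRT-0 subunit, had an shTRA2A peak alone, at chr3:105853603-105853652 and chr17:81696820-81696869 (scores 7.54 and 7.43, 21.0th and 15.1st percentiles). Of the cargo receptors, LRP1 had a control peak of 226 nt at chr12:57203240-57203465 (score 8.37) and an shTRA2A peak at chr12:57128808-57128857 (score 7.58), 74382 nt apart.

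Knockdown peaks that shared a base with a control peak were a minority among these genes. Of the 22 shTRA2A peaks 5 did, 22.7% (7.82 to 45.4%) against 34.6% over coding genes, and of the 46 shMETTL3 peaks 14 did, 30.4% (17.7 to 45.8%) against 33.1%. The shTRA2A peaks overlapped an shMETTL3 peak in 6 cases, 27.3% (10.7 to 50.2%) against 23.9%. These 6 lay in RAB7A, RAB11FIP2 (2), RABEP1 (2) and ITSN1, and seen from the shMETTL3 list they were 6 of 46, 13.0% against 11.8%.

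Peaks of regular width, which are single blocks of at most 1000 nt in multiples of 25 nt, were placed along the gene by their distance to its 3′ end. In the control 22 of 39 such peaks on the gene's strand lay within 5000 nt of that end, 56.4% (39.6 to 72.2%), against 47.9% over coding genes. In shTRA2A it was 5 of 15, 33.3% (11.8 to 61.6%) against 39.6%, and in shMETTL3 9 of 26, 34.6% (17.2 to 55.7%) against 43.0%. Median distances were 3488 nt in the control, 34254 nt in shTRA2A and 33479 nt in shMETTL3, against 5468, 8236 and 6902 nt. These genes are long, with a median body of 96020 nt among those with a control peak against 44348 nt over coding genes, and the distances count introns. Peaks of other widths, which may span introns, made up 31.2% of the control peaks of these genes (20 of 64) against 19.5%, 27.3% in shTRA2A against 33.3% and 43.5% in shMETTL3 against 30.3%.

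**Figure D3:**
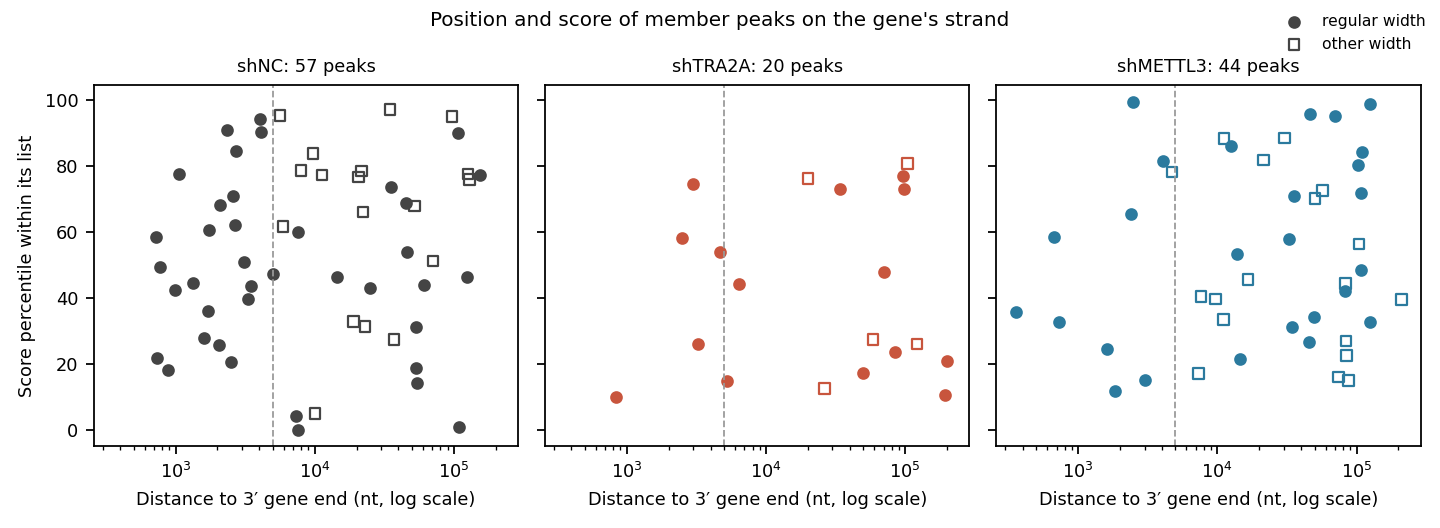
Each point is 1 peak on the strand of its gene, placed by the distance of its midpoint to the 3′ gene end (horizontal, log scale) and by the percentile of its score within its own list (vertical); filled circles are regular widths, open squares other widths, and the dashed line marks 5000 nt. The panels hold 57, 20 and 44 peaks. Of the regular control peaks 22 of 39 lie left of the line, 5 of them in RAB8A, against 5 of 15 and 9 of 26 in the knockdown lists.

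**Figure D4:**
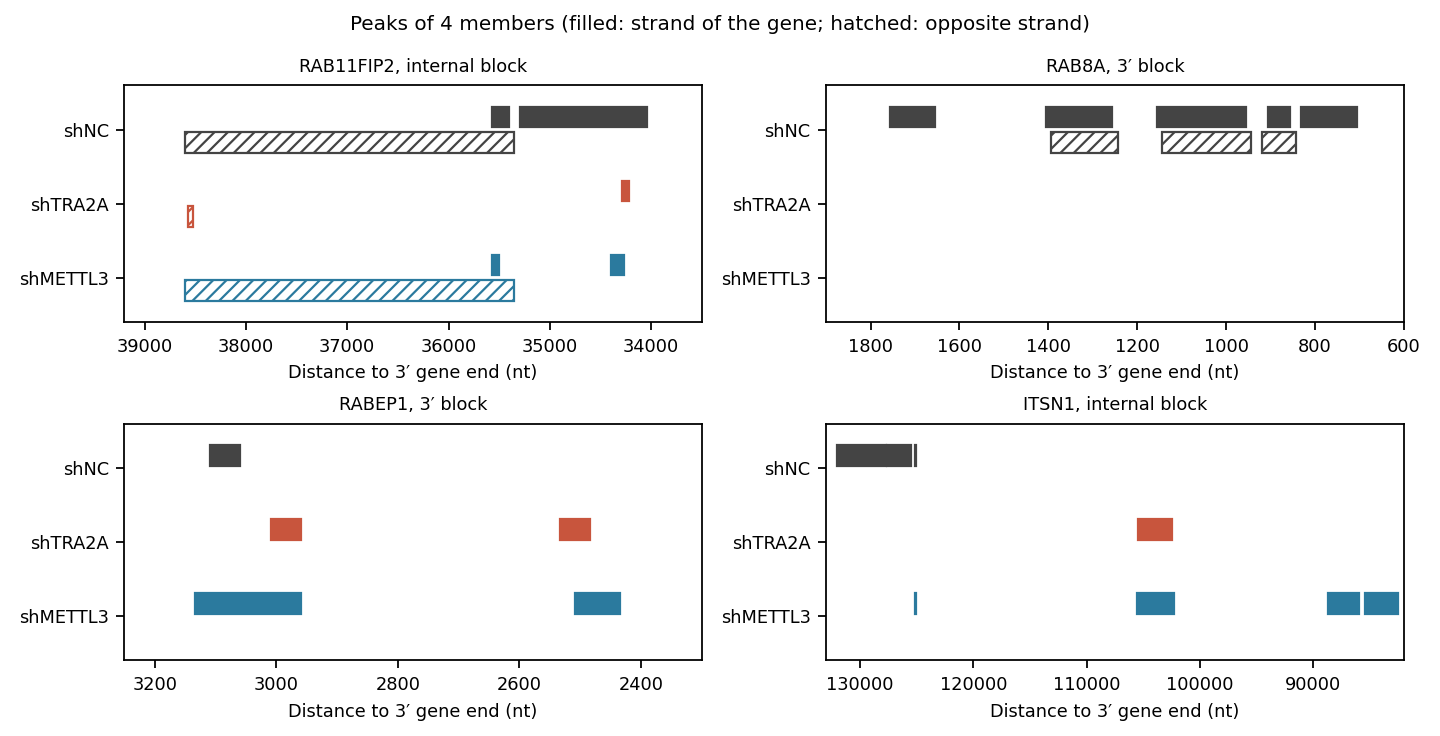
Peaks of RAB11FIP2, RAB8A, RABEP1 and ITSN1 in the 3 lists, drawn to scale along the distance to the 3′ gene end, filled on the gene's strand and hatched on the opposite strand. The RAB11FIP2 block has peaks in every list, the RAB8A block in the control alone, and in RABEP1 and ITSN1 both knockdown lists share a peak (midpoints at 2471 and 103920 nt from the end in shMETTL3) where the control has none.

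For the rest of the pathway, 101 further genes were counted, from other coat, sorting nexin, ESCRT, tethering and cargo receptor genes. Of these, 33 had a control peak, 32.7% (23.7 to 42.7%), 15 an shTRA2A peak and 35 an shMETTL3 peak, and 53 a peak in any list. Among the 33, 9 were called in shTRA2A, 27.3% (13.3 to 45.5%), and 20 in shMETTL3, 60.6% (42.1 to 77.1%), and the intervals again include the 29.1% and 47.8% of coding genes. Of their 54 control peaks, 5 were overlapped in shTRA2A, 9.26% against 9.65% over coding genes, and 11 in shMETTL3, 20.4% against 18.0%. The best control scores were those of USP8, an endosomal deubiquitinase (75.5, with 3, 1 and 1 peaks), and CLINT1, a clathrin adaptor of the Golgi (64.7, with 2, 0 and 2). LRP6, a WNT co-receptor, had 6, 1 and 1 peaks, PIK3C2A, a clathrin-bound lipid kinase, 4, 0 and 0, and IGF2R, the cation-independent mannose 6-phosphate receptor, 1, 0 and 4. These 5 were picked after their values were seen.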

How the data were processed

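The 6 meRIP-seq libraries were made from fragmented total RNA, per the labels' protocols. GRCh38, HISAT2 2.2.1, featureCounts 2.0.1 and SAMtools are listed in the submitters' processing notes. No peak caller or threshold is named there. The authors deposited peak lists in 12-column BED form, with a score per peak in column 5 whose scale is not stated. Of the lists, 3 were used. Another matches no label, equals the shTRA2A list byte for byte and was not used.

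Starts were turned to count from 1. Peaks were assigned to coding gene bodies of a RefSeq table (GRCh38.p14), as the report describes, and gene strand came from RefSeq start windows or, where none was given, from most of the gene's peaks. Overlap needed at least 1 base on the same strand. Widths and overlaps are those of the span from the first to the last base of a peak. Gaps between the blocks of a peak were not taken out. Overlaps were tested on simulated peaks with known answers, and on the deposited lists against bedtools. Shares carry exact Clopper-Pearson 95% intervals. These are computed over genes or peaks and cover counting error only. Peaks of the same gene may not be independent, and 1 peak list per condition gives no replicate spread. Amplified reads are not independent molecules either, but no reads enter these intervals. Python 3.11.15, pandas 2.3.3 and scipy 1.17.1 were used.

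The rule for genes given in full took those with 4 or more control peaks, 1 of the 10 best control scores, a control peak overlapped, or knockdown peaks alone. RAB13, RAB22A, EHD1, PICALM, AAK1, VPS13C, CBL and LRP1 fall outside it and were given positions after their values were seen. The members, role groups and lists were chosen with earlier results of these data known. The limits of 5000 nt and 100 nt, the 20% of best scores and the rule for regular widths were set after values were seen.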

Additional observations from a re-analysis of the deposited data

How the results depend on the processing

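The 7 counts of genes and peaks were recomputed under 52 alternative values, and 40 stayed within 1.5 times the reported count. Gene assignment by any body touched or by single bodies alone, the gene's majority strand, overlap on either strand, midpoints within 100 nt and merging within 100 nt moved none of them further than that. With the better-scoring 50% of each list, 4 of 22 control peak genes had an shTRA2A peak in place of 11 of 32, 2 control peaks in place of 4 were overlapped by shTRA2A, and 2 and 4 genes without a control peak had an shTRA2A or shMETTL3 peak in place of 6 and 8. With regular widths alone the first count was 7 of 25 and the overlapped control peaks in shTRA2A were 1 of 44. With each list held to its best 2736 peaks, 16 genes had a control peak in place of 32, 8 of these had an shMETTL3 peak and 8 an shTRA2A peak (50% each, reported as 43.8% and 34.4%). Of 21 control peaks 7 were then overlapped by shMETTL3 and 3 by shTRA2A, and these shares rose to 33.3% and 14.3% from 18.8% and 6.25%. Shares over all coding genes were not computed at this cut, so the rise cannot be read as a trait of these genes. Among 40 genes without a control peak the order turned, with 9 in shTRA2A and 6 in shMETTL3. Where a knockdown peak had to overlap a control peak, 3 and 9 genes were found. No control peak was covered over 50% of its length by shTRA2A peaks (0 of 64). The last 2 choices keep every peak and change what counts as found, while the others keep fewer peaks; the cause was not tested further. Depth per library is unknown, so it sets no floor here.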

Other observations

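Peaks on both strands at nearly the same place were seen in RAB8A and RABEP1, a pattern picked out after the values were seen. In RAB8A 3 control peaks on the minus strand mirrored 3 on the plus strand. The pairs at chr19:16132829-16132978 and chr19:16133079-16133278 had partners of equal width, 150 and 200 nt, shifted by 13 nt at both ends, with scores of 11.7 and 14.6 and of 19.6 and 18.6 on the plus and minus strand. In RABEP1 the 50 nt control peaks at chr17:5361312-5361361 and chr17:5361313-5361362 lay 1 nt apart on opposite strands with the same score, 11.6. Of the 64 control peaks of the endocytosis genes 12 overlapped a control peak on the other strand, 18.8%, against 5.79% over coding genes. They belong to RAB8A, RABEP1 and RAB11FIP2 alone. In the knockdown lists it was 0 of 22 in shTRA2A and 2 of 46 in shMETTL3, against 3.53% and 3.86%. If only peaks on the gene's own strand are counted, RAB8A has 5 control peaks and RABEP1 has 3. The kit is stranded per the labels, and the labels do not say how strand entered the peak calling, so where these pairs come from was not tested.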
